A study of Mus musculus with 6 samples.

Results

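The clustered protocadherins are cell-surface adhesion proteins of the cadherin superfamily, encoded in 3 neighbouring gene clusters named alpha, beta and gamma on mouse chromosome 18. Members were taken by symbol from the deposited gene table. The alpha cluster gave 14 rows (Pcdha1 to Pcdha12 with Pcdhac1 and Pcdhac2), the beta cluster 22 and the gamma cluster 22 (the Pcdhga, Pcdhgb and Pcdhgc genes), together 58 of 44788 rows. The rows were chosen by symbol alone. The family itself was selected on its counts in these same 6 libraries, with its differences between the groups already known, so those differences are given as a description and support nothing.

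In these clusters each alpha or gamma gene has its own large first exon and its own promoter. That exon encodes the extracellular and membrane-spanning part and is spliced to a set of constant exons, which all genes of the cluster share and which encode a common cytoplasmic end. Beta genes have no constant exons and are each contained in a single coding exon. The proteins bind identical partners on neighbouring cells, and they are best known from neurons, where CTCF and cohesin act in the choice of promoter and the combination expressed gives a cell a surface identity. The last genes of the alpha and gamma clusters, Pcdhac1, Pcdhac2, Pcdhgc3, Pcdhgc4 and Pcdhgc5, are called C-type and are less subject to random choice in neurons.

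The series measured RNA from the endometrium, the lining of the uterus, in a mouse model of adenomyosis, in which endometrial tissue grows into the muscle wall. All libraries came from female ICR mice, an outbred strain, that were given 2.7 µmol/kg tamoxifen by mouth on days 2 to 5 after birth. After 75 days the agonist group received the GnRH agonist Decapetyl (so spelled in the labels) at 1.5 µg per 100 g body weight per day by injection into the abdomen on days 3 to 9 of estrus, and the other group received solvent, with 8 mice in each arm. Mating followed 4 weeks after that, and the tissue was collected by scraping on day 4 of pregnancy from uteri in which histology had shown adenomyosis. There were 3 libraries with and 3 without the agonist. Within each group they are numbered 1 to 3 in the order of their sample titles, and equal numbers do not mark a pair. No label ties a library to one animal, so the p-values describe how far these libraries spread, which may be partly technical. Both groups carried tamoxifen, adenomyosis and pregnancy, and mice without tamoxifen were not analysed here.

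Library totals ranged from 11720958 to 14104266 counts. Levels are given in CPM, the count divided by a library size scaled for composition, on which 1 read was worth 0.0679 to 0.0919 CPM. The 12 stromal and the 12 epithelial markers were all detected, and so were the 12 smooth muscle markers, with summed levels of 10800 to 27000 CPM without the agonist and 4600 to 16200 CPM with it. Markers of ovary and oviduct summed to 199 CPM in agonist library 1 and to 11.4 to 26.4 CPM in the other libraries, which was mostly the oviduct glycoprotein gene Ovgp1. The 12 neuronal markers summed to 10.7 to 20.1 CPM. Elavl3 and Elavl4 had 2 reads each and Snap25 had 5 over all 6 libraries, while Stmn2 had 438, Gap43 309 and Rbfox3 265, and 5 of the 12 passed the filter on low counts. In bulk tissue, fewer cells of a type and less RNA per cell cannot be told apart.

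The counts of the alpha and of the gamma genes were for the most part repeats of one common number. In the alpha cluster the lowest count over the 14 members was 5, 2 and 2 reads in no-agonist libraries 1 to 3 and 2, 2 and 4 reads in agonist libraries 1 to 3. Between 7 and 11 of the 14 members stood exactly at that lowest count in each library. Pcdha1, Pcdha7, Pcdha11 and Pcdhac1 held it in all 6 libraries, so their rows were identical to each other.

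In the gamma cluster the lowest count over the 22 members was 79, 46 and 51 reads in the no-agonist libraries and 89, 83 and 73 reads in the agonist libraries. Between 13 and 20 of the 22 members lay within 10 reads of it in each library. The GENCODE M21 annotation of GRCm38 gives 2860 exonic bases that its 14 alpha entries share and 2116 that its 22 gamma entries share. For its 22 beta entries it gives 0 such bases. Pcdha10 and Pcdha11 did not each match 1 of the alpha entries. Beta counts showed no common floor, since Pcdhb1 had 1 read in all. The 8 Ugt1a rows, of another locus whose genes share exons, had a lowest count of 89 to 206 in each library, and 3 to 5 of the 8 rows lay within 10 reads of it. The rule by which reads in shared exons were assigned is not given in the sources used here.

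**Figure D1:**
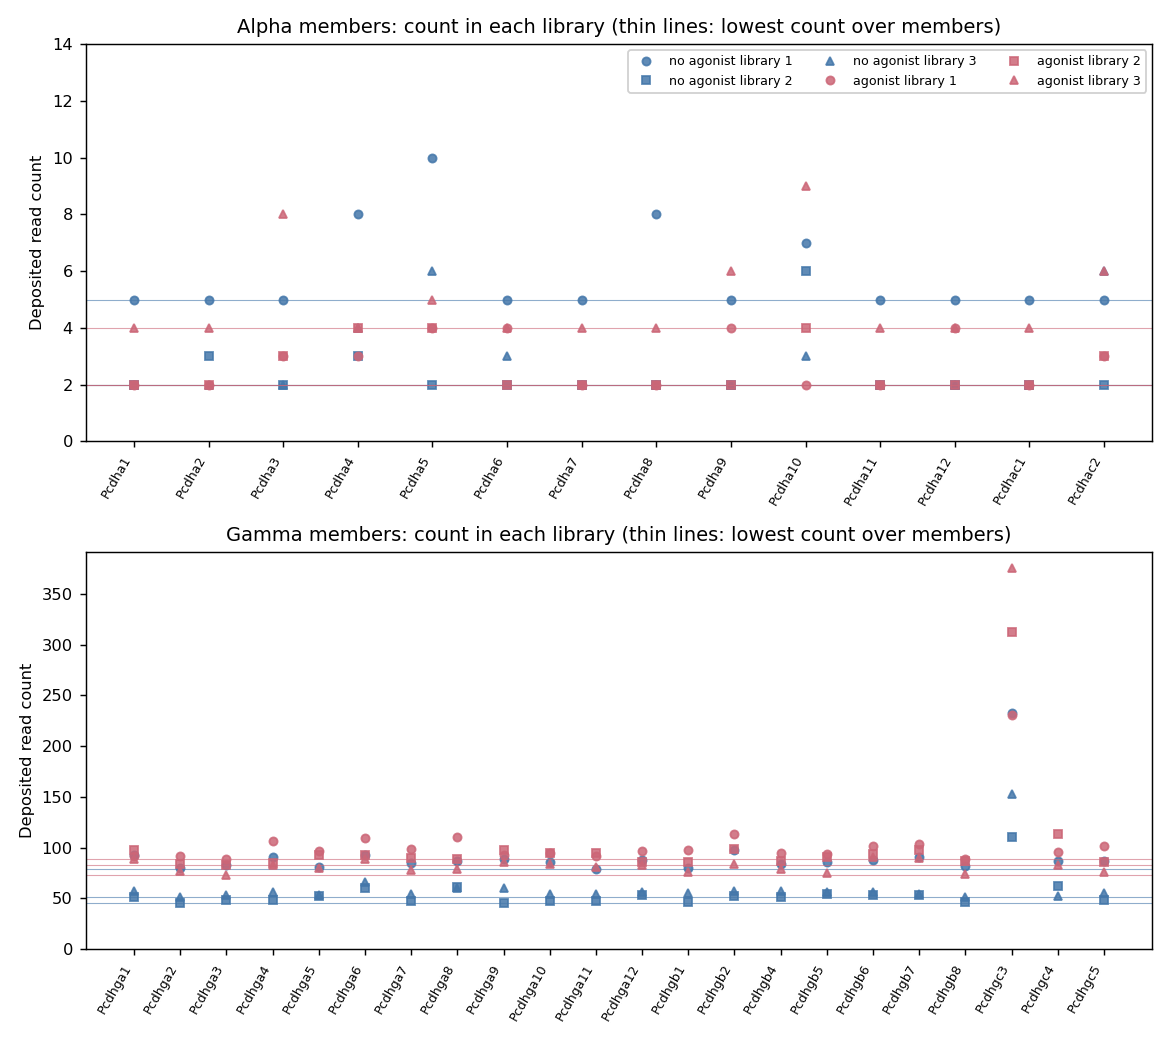
Deposited read count (y axis, linear) of each alpha member (top) and gamma member (bottom) in each library, with circles, squares and triangles for libraries 1, 2 and 3, blue without and red with the agonist; thin lines mark the lowest count over the members in each library. Most points lie on or just above their library's line, and Pcdhgc3, with 111 to 375 reads, stands above all other gamma members in every library.

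Because of this floor, 2 quantities are given below for alpha and gamma genes. The deposited count of a gene includes the common reads. The reads above the lowest count of its cluster in the same library are called own reads, and they are a lower limit to what belongs to that gene alone if every member received the same common reads. A cluster's total with the common reads taken once is the lowest count plus the own reads of all members.

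Measured by own reads, Pcdhgc3 was the leading gamma gene in every library. Its deposited level was 17.6, 9.66 and 14.1 CPM in no-agonist libraries 1 to 3 and 18.5, 21.2 and 28.9 CPM in agonist libraries 1 to 3. The groups did not overlap, and the highest no-agonist library, the first, lay close to the lowest agonist library, also the first. The means were 13.8 ± 3.97 and 22.9 ± 5.36 CPM (SD, n = 3 each), a 1.66-fold higher level with the agonist and a fitted log2 fold change of 0.73 ± 0.31 (SE). It was the 1 member at an unadjusted p under 0.05, where 9.26% of all genes tested were, and it did not pass the threshold (adjusted p = 0.529 over all genes by edgeR's quasi-likelihood test). When no-agonist library 1, 2 or 3 was left out, its unadjusted p in the same test was 0.0286, 0.125 and 0.0758. Without agonist library 1, 2 or 3 it was 0.0384, 0.0656 and 0.156.

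With the common reads removed, the own reads of Pcdhgc3 numbered 154, 65 and 102 in the no-agonist libraries and 142, 229 and 302 in the agonist libraries. In CPM these were 11.6, 5.66 and 9.37 against 11.4, 15.6 and 23.2. The groups then overlapped, since agonist library 1 lay just below no-agonist library 1. The fitted log2 fold change of the own reads was 0.91 ± 0.39 (adjusted p = 0.531, edgeR's quasi-likelihood test on counts with the common reads taken once). Pcdhgc3 lies among the last genes of the gamma cluster (chromosome 18, 37806364 to 37841873, GRCm38). A gene on the opposite strand overlaps it in the annotation, and since the strand setting of the counting is not given, reads of the pair cannot be told apart.

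Pcdhgc3 supplied 49.2% of all own gamma reads in the first no-agonist library (43.5 to 54.9%, exact binomial interval at 95%), 36.5% in library 2 (29.4 to 44.0%) and 51.5% in library 3 (44.3 to 58.7%). With the agonist the shares were 41.6% (36.4 to 47.1%), 54.9% (50.0 to 59.8%) and 63.0% (58.6 to 67.4%). The shares of the groups overlapped, and the intervals cover counting error alone. The other C-type gamma genes were at the level of the ordinary ones. Pcdhgc4 had 8, 16 and 1 own reads without the agonist and 7, 31 and 10 with it. Pcdhgc5 had 8, 3 and 4 own reads without the agonist and 13, 3 and 3 with it. Neither reached the level of Pcdhgc3 in any library.

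**Figure D2:**
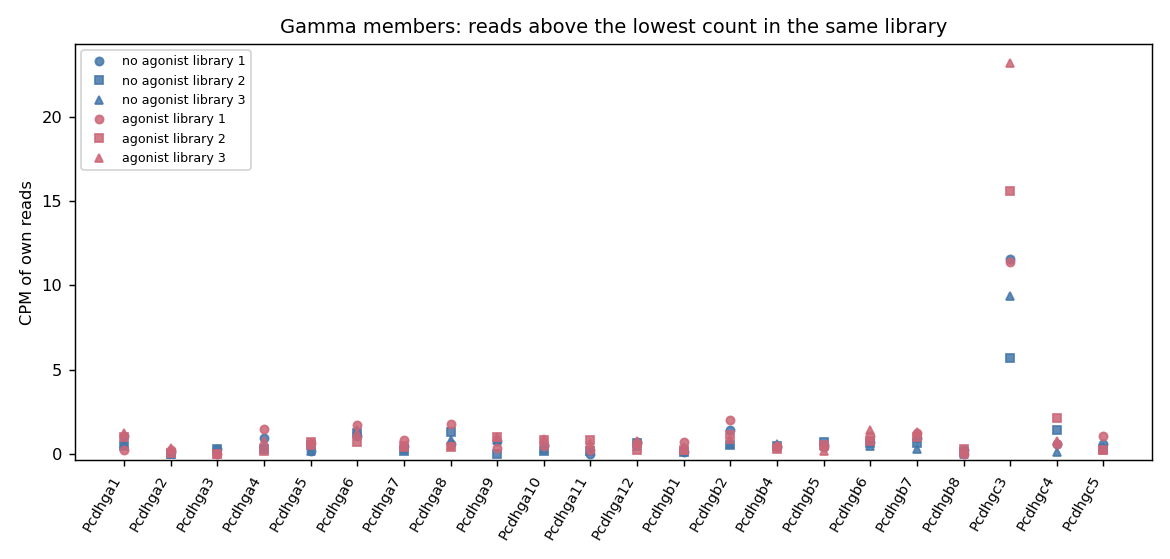
CPM of own reads (y axis, linear) of each gamma member in each library, symbols and colours as in the plot of deposited counts. Pcdhgc3 lies between 5.66 and 23.2 CPM in the 6 libraries, and each of the other 21 members has at most 31 own reads in any library.

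The other 21 gamma genes had between 9 and 90 own reads over all 6 libraries, with a median of 41, against 994 for Pcdhgc3. Pcdhga6 led them with 14, 14 and 15 own reads without the agonist and 21, 10 and 16 with it, which overlapped. Its log2 fold change went from 0.26 ± 0.32 on the deposited counts to -0.03 ± 0.48 on own reads. Pcdhgb2 had 19, 6 and 6 own reads without the agonist and 25, 16 and 11 with it, so its groups overlapped too, and its log2 fold change was 0.38 ± 0.35 on deposited counts and 0.63 ± 0.60 on own reads. By type, the median over the 6 libraries was 41.5 own reads for the 12 Pcdhga genes and 35 for the 7 Pcdhgb genes. Each of the 21 genes thus had at least 9 own reads, and none led the others by the margin of Pcdhgc3.

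Levels between genes were compared per kilobase of exon that no other member of the family shares. Pcdhgc3 had 3.79 CPM of own reads per kilobase on average over the 6 libraries (SD 1.79), and the other 21 gamma genes had 0.0442 to 0.462. The exons common to the cluster gave 2.82, 1.89 and 2.21 CPM per kilobase without the agonist and 3.37, 2.66 and 2.65 with it. The own exons of all 22 genes summed to 7.66, 5.04 and 5.84 CPM per kilobase without the agonist and to 9.27, 8.93 and 11.8 with it. In each library the summed level so computed thus exceeded the level of the common exons. Own reads in bases that only some members share were kept, while those bases were left out of the length, which raises the sum. Pcdhga4, for example, has 1570 own bases of 4727 exon bases. The value of Pcdhgc3 alone was above that of the common exons in no-agonist libraries 1 and 3 (3.44 and 2.77) and in agonist libraries 2 and 3 (4.60 and 6.87), equal to it in agonist library 1 (3.37) and below it in no-agonist library 2 (1.67). The cause of this gap was not tested.

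Taken as a cluster, gamma had a higher mean with the agonist on each scale used. Summed as deposited, with the common reads counted for every member, it measured 155, 104 and 121 CPM against 184, 152 and 160 CPM, and the groups overlapped. With the common reads taken once it measured 29.6, 19.5 and 22.9 CPM in no-agonist libraries 1 to 3 and 34.5, 34.0 and 42.5 CPM in agonist libraries 1 to 3. All 3 agonist libraries lay above all 3 others, with means of 24.0 ± 5.14 and 37.0 ± 4.77 CPM (n = 3 each), a ratio of 1.54. On the log2 scale the difference was 0.62, and it ranged from 0.50 to 0.80 when each library was left out in turn. The part held by the common reads measured 4.88 ± 0.995 against 6.13 ± 0.874 CPM, which overlapped (log2 fold change 0.33 ± 0.34). The own reads measured 19.1 ± 4.14 against 30.8 ± 5.23 CPM and did not overlap, and much of that difference was Pcdhgc3, whose own mean went from 8.88 ± 3.01 to 16.7 ± 6.01 CPM.

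The lists of cell type markers did not stand at the same level in both groups. Endothelial markers lay higher in 12 of 12 tested members, with a median log2 fold change of 0.55, and summed to 586, 453 and 463 CPM without the agonist against 791, 815 and 563 CPM. Epithelial markers were lower for 11 of 12, with sums of 9070 to 14000 CPM against 4810 to 7550 CPM, and smooth muscle markers lower in 12 of 12. Stromal markers lay higher in 7 of 12 and lower in 5, with overlapping sums of 4530 to 7290 and 4540 to 5720 CPM. Neuronal markers lay higher in 4 of 5 tested members, with sums of 10.7 to 19.7 and 16.5 to 20.1 CPM. The part of these shifts in the gamma values was not tested.

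**Figure D3:**
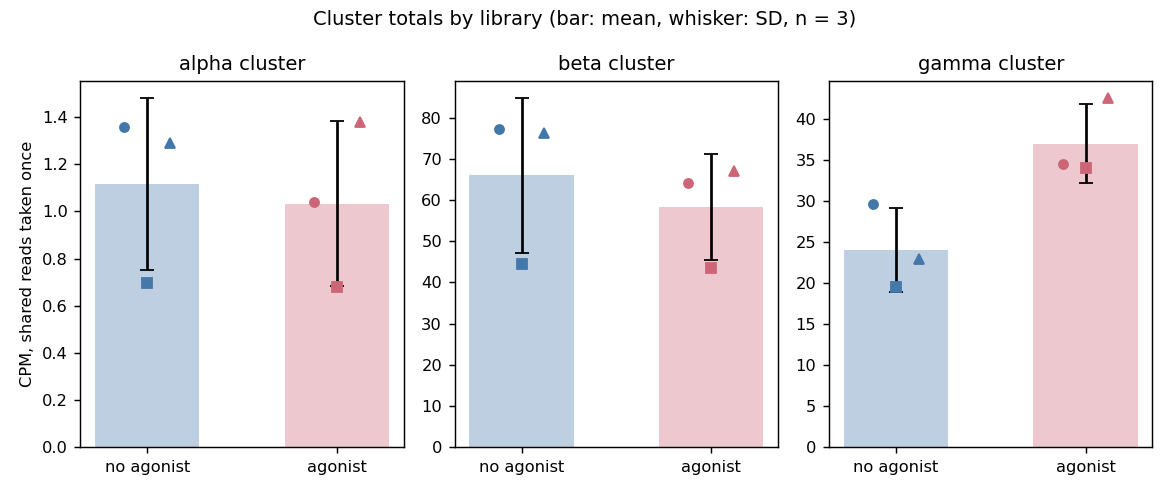
CPM of each cluster with common reads taken once (y axes, linear, starting at 0), with 1 point per library (circle, square and triangle for libraries 1, 2 and 3), bars for means and whiskers for SD (n = 3 each). Only the gamma panel shows groups that do not overlap, at 19.5 to 29.6 CPM without and 34.0 to 42.5 CPM with the agonist.

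All 22 gamma genes passed the filter on low counts and all 22 had a positive fitted log2 fold change, as had 52.2% of all 16581 genes tested. They ran from 0.25 to 0.73 with a median of 0.36, against a median of 0.018 over all genes. Because their rows share the common reads, these are not 22 separate measurements. With the common reads taken once, 7 gamma genes passed the filter and 6 of the 7 were higher. Pcdhga6 was the exception. On deposited counts 3 of the 22 had groups that did not overlap, namely Pcdhgc3, Pcdhga5 and Pcdhga11, all higher, where 6.94% of all genes tested were higher without overlap. Pcdhga5 had 2, 6 and 2 own reads without the agonist and 8, 10 and 7 with it. Pcdhga11 had 0, 2 and 3 against 3, 12 and 8, which in CPM overlapped. By own reads, Pcdhgb6 and Pcdhgb7 also lay higher without overlap. Pcdhga3 had 4, 3 and 2 own reads against 0 in each agonist library. Its count was itself the lowest of the cluster there, so these 0 values follow from the definition of own reads. Its deposited level was 5.13 ± 1.03 against 6.13 ± 0.874 CPM, which overlapped (log2 fold change 0.25 ± 0.34). No share over all genes can be set beside own reads, which are defined for alpha and gamma genes alone.

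No member of any cluster was called in the fit over all genes, in which 0% of the 16581 genes had an adjusted p under 0.05 (edgeR's quasi-likelihood test). At an unadjusted p under 0.05, the 37 members tested gave 1 on the higher side, where 4.17% of all genes were, and 0 on the lower side, where 5.09% were. DESeq2 called 0 members, with a smallest adjusted p of 0.404 among them, and 2.43% of all genes for which it gave an adjusted p. Adjusted p ranged from 0.529 to 0.876 over the gamma genes and from 0.674 to 0.995 over the 15 beta genes tested. Standard errors of log2 fold changes were 0.31 to 0.35 for gamma and 0.36 to 0.59 for beta genes.

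**Figure D4:**
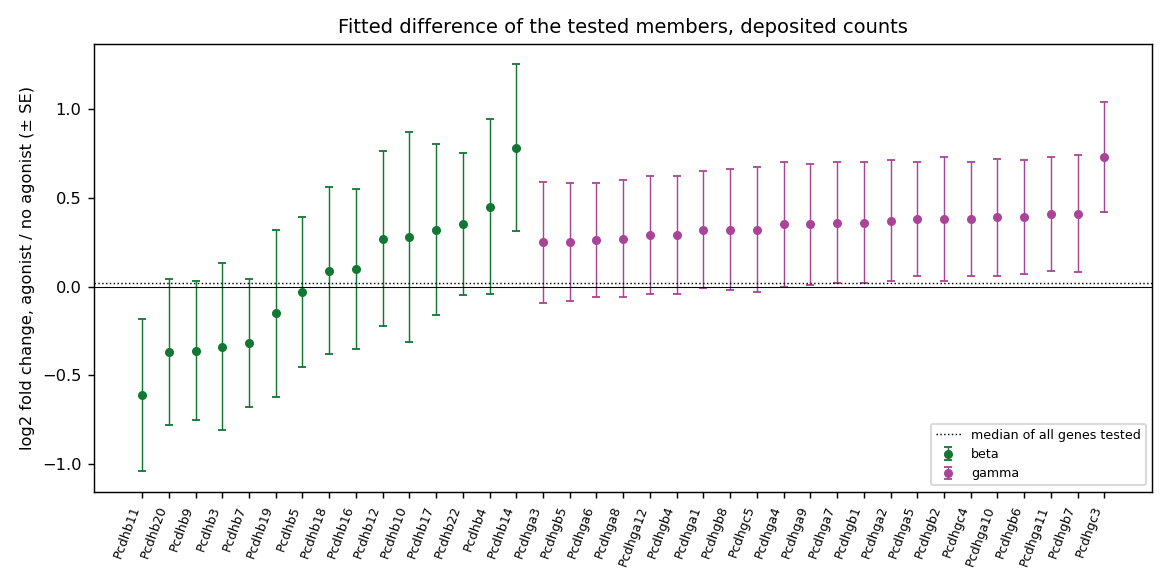
Fitted log2 fold change (y axis, agonist over no agonist, deposited counts) with its SE for the 15 beta and 22 gamma members tested, sorted within each cluster; the dotted line is the median of all genes tested. Gamma members share common reads and lie together between 0.25 and 0.73, and beta members spread from -0.61 to 0.78 around the dotted line.

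The beta genes differed widely in level, and no exon is common to all of them, although Pcdhb21 and Pcdhb22 overlap in the annotation. Pcdhb9 led the cluster with 34.3, 13.8 and 26.8 CPM without the agonist and 20.4, 12.7 and 25.2 CPM with it. The groups overlapped, with the lowest values in the second library of each (25.0 ± 10.3 against 19.4 ± 6.29 CPM, log2 fold change -0.36 ± 0.39). Pcdhb9 lies in the middle of the cluster (chromosome 18, 37400855 to 37403909, GRCm38). It took 44.2% (41.2 to 47.4%, exact binomial interval at 95%), 31.2% (27.2 to 35.4%) and 35.1% (31.9 to 38.5%) of all beta reads without the agonist. With the agonist it took 31.8% (28.5 to 35.1%), 29.2% (25.7 to 32.9%) and 37.5% (34.2 to 40.8%), so its share overlapped between the groups.

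Pcdhb20, Pcdhb7 and Pcdhb3 followed. Pcdhb20 measured 5.74, 3.31 and 6.89 CPM without the agonist and 4.49, 3.19 and 4.62 CPM with it (log2 fold change -0.37 ± 0.41). Pcdhb7 measured 4.38, 4.35 and 6.43 CPM against 4.49, 4.21 and 3.46 CPM (-0.32 ± 0.36). Pcdhb3 had 73, 38 and 69 reads against 44, 36 and 78 reads (-0.34 ± 0.47). In all of them the groups overlapped and the fitted difference was smaller than its error.

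Per kilobase of own exon, Pcdhb9 stood at 7.26 CPM on average over the 6 libraries (SD 2.70), above Pcdhb20 at 1.32 (SD 0.400), Pcdhb7 at 1.30 (SD 0.283) and Pcdhb3 at 1.19 (SD 0.430). The ranges of Pcdhb9 (4.16 to 11.2) and Pcdhb20 (0.897 to 1.94) did not overlap. Of the 21 pairs of neighbours in the order of levels, 19 had overlapping ranges, the exceptions being Pcdhb9 above Pcdhb20 and Pcdhb21 above Pcdhb1. Pcdhb17 (0.751), Pcdhb5 (0.586), Pcdhb10 (0.549) and Pcdhb12 (0.545) came next. Pcdhb8, Pcdhb6, Pcdhb21 and Pcdhb1 were the lowest, at 0.143, 0.126, 0.0878 and 0.00486. The level did not follow the order along the chromosome, since the 4 leading genes hold the places 9, 20, 7 and 3 of 22. Of the genes next to them, Pcdhb8, Pcdhb21, Pcdhb6 and Pcdhb2 were among the 7 lowest. The other neighbours, Pcdhb10, Pcdhb19 and Pcdhb4, ranked 7, 12 and 14 by level. Beta genes are similar in sequence, so reads may have been shared or lost between them.

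**Figure D5:**
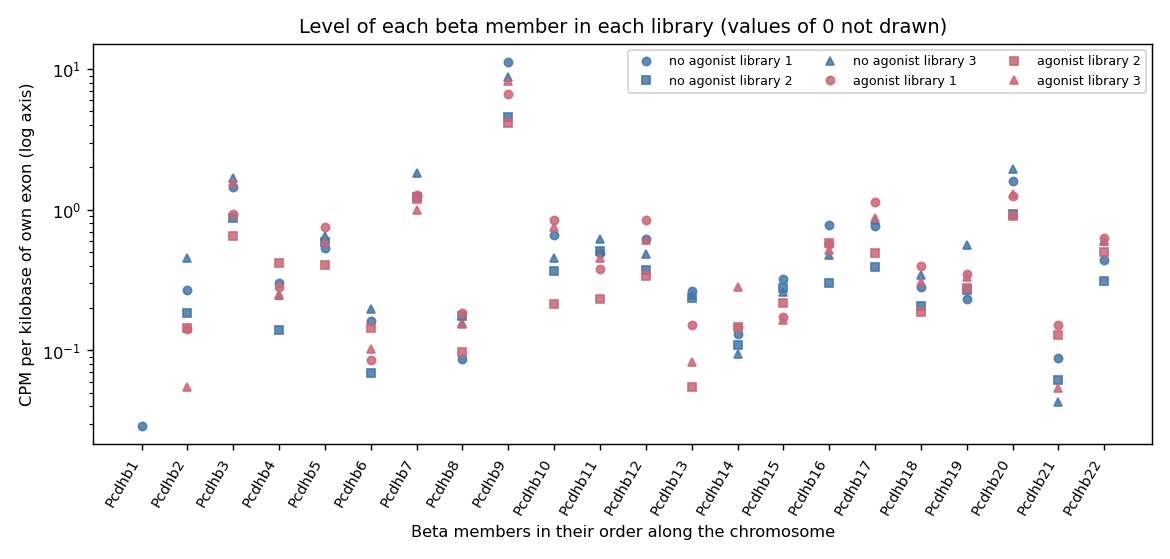
CPM per kilobase of own exon (y axis, log scale) of the 22 beta members in each library, in their order along the chromosome, symbols and colours as in the plot of deposited counts. Pcdhb9, at 4.16 to 11.2, lies above all other members, and blue and red points are mixed for most genes.

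As a cluster, beta measured 77.4, 44.4 and 76.3 CPM without the agonist and 64.2, 43.5 and 67.2 CPM with it. The groups overlapped (66.0 ± 18.8 against 58.3 ± 12.9 CPM), and the second library of each group was low. No-agonist library 2 and agonist library 2 were the lowest libraries for 12 of the 15 tested beta genes, 4 in the first and 8 in the second. Of the 15, 8 were higher and 7 lower with the agonist, with a median log2 fold change of 0.09, while the log2 ratio of the summed levels was -0.18. The signs of the median and the sum differed, and the 4 leading genes, which weigh most in the sum, all had negative log2 fold changes. Without agonist library 1 the median was -0.19, without no-agonist library 2 it was -0.13, and with no filter on low counts it was -0.10.

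Among the tested beta genes, Pcdhb14 was higher and Pcdhb11 lower with groups that did not overlap, where 6.94% of all genes were higher and 7.61% lower in this way. Pcdhb14 had 15, 11 and 9 reads without the agonist and 16, 19 and 32 with it (log2 fold change 0.78 ± 0.47, adjusted p = 0.674). Pcdhb11 had 29, 26 and 30 reads against 21, 15 and 26 (-0.61 ± 0.43, adjusted p = 0.731, both by edgeR's quasi-likelihood test). Neither difference passed the test. The other 7 beta genes did not pass the filter on low counts. Pcdhb13 had 13, 10 and 10 reads without the agonist and 7, 3 and 4 with it. Pcdhb2 had 10, 6 and 14 against 5, 6 and 2, and Pcdhb15 had 12, 9 and 8 against 6, 9 and 6. In CPM the agonist libraries of these genes lay below the others without overlap, at counts too low for the fit. As counts, Pcdhb2 and Pcdhb15 reached 6 and 9 reads in a library of each group, so their separation rests on the scaling. The 7.61% is a share of tested genes, and no share was taken over genes under the filter. Pcdhb1, Pcdhb6, Pcdhb8 and Pcdhb21 made up the rest of the 7 and overlapped.

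The alpha cluster was close to the detection limit. None of its 14 genes passed the filter. With the common reads taken once, the cluster had 18, 8 and 14 reads without the agonist and 13, 10 and 18 with it, or 1.11 ± 0.363 against 1.04 ± 0.353 CPM, which overlapped. The own reads of all 14 members added up to 64 over the 6 libraries. Pcdha10 had 2, 4 and 1 own reads without the agonist and 0, 2 and 5 with it. Pcdha5 had 5, 0 and 4 against 2, 2 and 1, and Pcdha4 had 3, 1 and 2 against 1, 2 and 0. Of the C-type genes, Pcdhac2 had 0, 0 and 4 own reads against 1, 1 and 2, and Pcdhac1 had 0 in every library. A difference in alpha genes was not detectable at this depth, where 3 reads correspond to 0.204 to 0.276 CPM.

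The non-clustered protocadherins, single genes of the same superfamily, gave 6 of 12 members tested, 4 of them higher and 2 lower (median log2 fold change 0.20), and 0 at an unadjusted p under 0.05. Pcdh1, an adhesion protein of epithelia, measured 85.1, 63.8 and 60.9 CPM without the agonist and 37.8, 62.1 and 26.4 CPM with it, so the groups overlapped. The endothelial Pcdh12 measured 3.77, 5.39 and 1.29 CPM against 4.89, 15.4 and 2.92 CPM. Among classical cadherins and catenins 6 were higher and 6 lower of 12. At an unadjusted p under 0.05 there were 3, of which Ctnna1 was lower, against 9.26% of all genes in either direction, and 0 were called. N-cadherin, Cdh2, measured 2.34, 0.957 and 2.02 CPM against 3.37, 4.89 and 10.6 CPM (log2 fold change 1.82 ± 0.57). The endothelial cadherin Cdh5 measured 33.6 ± 8.23 against 60.2 ± 24.5 CPM. The catenin Ctnna1, which links cadherins to actin, measured 606 ± 79.9 against 409 ± 16.5 CPM.

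Of the factors that act on promoter choice in the clusters, CTCF and cohesin subunits and loaders, 9 of 10 tested were higher and 1 lower (10 and 0 with library totals alone), with log2 fold changes from -0.02 to 0.31. An unadjusted p under 0.05 was found for 0 of these. The DNA-binding Ctcf measured 77.0 ± 2.99 against 79.5 ± 5.16 CPM and the cohesin subunit Rad21 166 ± 12.9 against 179 ± 43.4 CPM, both overlapping. Of 16 genes of silencing, of DNA methylation and of its removal (Tet1, Tet2 and Tet3), 13 were higher and 3 lower (15 and 1 with library totals alone). An unadjusted p under 0.05 was found for 2, both higher, where 4.17% of all genes were, and 0 were called. Smchd1, a silencer of the clusters, measured 37.7, 35.1 and 40.7 CPM without the agonist and 36.3, 55.4 and 53.6 CPM with it. The methyltransferase Dnmt3a measured 53.8, 54.3 and 47.4 CPM against 69.8, 68.6 and 76.2 CPM (log2 fold change 0.46 ± 0.16, adjusted p = 0.454, edgeR's quasi-likelihood test). The methylcytosine oxidase Tet1 measured 4.00, 2.18 and 3.31 CPM against 7.06, 7.61 and 16.1 CPM (1.69 ± 0.46, adjusted p = 0.335, same test). Groups did not overlap for 4 genes of this list on the higher side (Dnmt3a, Tet1, Dnmt3b and Rest), where 6.94% of all genes were, and for 1 on the lower side (Wiz), where 7.61% were.

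Cytoplasmic and membrane partners, such as focal adhesion kinases and the WAVE complex that drives actin branching, were lower in 12 of 16 tested genes (median log2 fold change -0.16). With library totals alone 7 of 16 were lower (median 0.01), so their direction depended on the scaling. At an unadjusted p under 0.05 there were 3, all lower, where 5.09% of all genes were, and 0 were called. The WAVE subunit Nckap1 measured 179 ± 33.7 against 117 ± 14.5 CPM, and the WAVE subunit Abi1 measured 109 ± 21.3 against 78.0 ± 7.41 CPM. The receptor tyrosine kinase Ret measured 18.7 ± 4.28 against 7.99 ± 3.19 CPM (log2 fold change -1.22 ± 0.36). Genes that lie beside the clusters were higher in 5 and lower in 6 of 11 tested, with a median log2 fold change that rounded to 0, and 0 had an unadjusted p under 0.05. With library totals alone 8 of these were higher and 3 lower. Taf7, which lies between the beta and gamma clusters, measured 12.2, 11.4 and 10.3 CPM without the agonist and 7.78, 10.7 and 14.2 CPM with it.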

How the data were processed

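The authors deposited 1 table of read counts per gene, whose 6 columns carry the sample titles. The submitters' processing notes name HTSeq 0.6.1 and the builds mm10 and GRCm38. Single-end libraries were sequenced on Proton instruments, per the labels' protocols. No source used here gives the aligner, the annotation, the strand setting or how reads in shared exons were treated. Library totals were 11720958 to 14104266 counts.

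Genes were filtered with filterByExpr, scaled by TMM factors and compared with the quasi-likelihood test of edgeR, with no covariate (R 4.3.3, edgeR 4.0.16, limma 3.58.1, DESeq2 1.42.0), with Benjamini-Hochberg adjustment over 16581 genes and a threshold of 0.05. CPM use TMM-scaled library sizes. The standard error of a log2 fold change was taken as its absolute value divided by the square root of the test's F statistic. Exon lengths and coordinates (1-based) come from GENCODE M21, in which 56 of 58 members matched 1 entry. Pcdha10 and Pcdha11 did not.

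Members and lists were chosen with earlier results of these data known. Values by library were given for the 4 genes with the highest mean CPM per cluster, members at an unadjusted p under 0.05 and the C-type genes. Other members were added after their values were seen. Of each list up to 3 genes at an unadjusted p under 0.05 were named, with Ctcf, Rad21 and Smchd1. Pcdh1, Pcdh12, Taf7, Dnmt3b, Rest, Wiz and single marker genes were added after their values were seen. The split into common and own reads was also chosen after seeing the data. Lists of Schwann cell, pericyte, leukocyte, mesothelium and embryo markers are given at the end. One further list is not reported here.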

Additional observations from a re-analysis of the deposited data

How the results depend on the processing

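The 0 called members were found under every alternative: DESeq2 size factors in edgeR, library totals alone, no filter, a stricter filter (1 CPM in 3 libraries), DESeq2, edgeR's likelihood ratio test, limma-voom, each library left out, and common reads taken once. Of all genes, DESeq2 called 394 of 16216, the likelihood ratio test 268 of 16581 and the fit with no filter 36 of 28089. Without no-agonist library 2, 1 gene was called. The other alternatives called 0 genes at all, so 0 members was fixed there. Leaving out 1 library gave 0 to 1 members higher and 0 to 1 lower at an unadjusted p under 0.05, against 1 and 0. With all 6 libraries 4.17% of all genes were higher and 5.09% lower in this way, and no share was taken with 1 left out. With 1 library left out, the median log2 fold change of beta was -0.19 to 0.14, against 0.09. It was -0.19 without agonist library 1 and -0.13 without no-agonist library 2, so its sign rests on these libraries. It was also negative, at -0.10 over 22 genes, with no filter. With common reads taken once, the median of gamma genes was 0.63 over 7 genes tested against 0.36, and the log2 ratio of the summed gamma levels was 0.62 against 0.39, in which common reads counted 22 times. Library totals alone moved the median of all genes from 0.018 to 0.183 and that of gamma to 0.51, and all 22 gamma genes had values above 0 in each alternative on deposited counts. It also turned the medians of the partners (0.01) and of the pericyte markers (0.04) from negative to positive. The median of alpha genes has no value because none passed the filter. Of 125 values of named members under alternatives, 123 moved by less than 1 SD between libraries and 1 changed sign, Pcdhga6 at -0.03. Leaving out 1 of 3 libraries can hardly move a value by such an SD, so this count does not measure stability. The log2 fold change of Pcdhb3 was -0.76 without agonist library 3 and -0.08 without agonist library 2, against -0.34. No paired analysis was possible because the labels give the groups no shared replicate numbers. With 1 to 31 reads per library for most own values, counting error limits what can be seen of single promoters.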

Other observations

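The other marker lists are given here by their summed levels, and their part in the protocadherin values was not tested. Schwann cell markers summed to 143 to 199 CPM without the agonist and 115 to 143 CPM with it, with 2 higher and 3 lower of 5 tested. Most of these sums was Ngfr, Erbb3 and Mbp, while Sox10 had 24 reads, S100b 51 and Foxd3 2 over all 6 libraries. Pericyte markers summed to 252 to 429 and 188 to 382 CPM, with 2 higher and 4 lower of 6. Leukocyte markers summed to 338 to 812 and 225 to 350 CPM, with 6 higher and 4 lower of 10 tested and a median log2 fold change of 0.35, opposite in sign to the change in the sum. Among these the myeloid integrin Itgam measured 342 ± 116 against 45.8 ± 44.9 CPM with the agonist (log2 fold change -2.90 ± 0.70, adjusted p = 0.304, edgeR's quasi-likelihood test). Without the agonist it held 347, 224 and 455 CPM of sums of 782, 338 and 812 CPM. With the agonist it held 97.4, 25.1 and 15.0 CPM of 347, 350 and 225 CPM. Cd68 was lower too (-1.63 ± 0.36). The log2 fold changes of Csf1r (-0.35), Lyz2 (-0.09), Tyrobp (0.34) and Ptprc (0.36) were smaller than their errors. Cd79a (2.06 ± 0.60), Il2rb (1.57 ± 0.55) and the NK receptor Ncr1 were higher, Ncr1 at 0.646 ± 0.424 against 2.99 ± 2.44 CPM. Mesothelial markers summed to 91.9 to 470 CPM over the 6 libraries. The keratin Krt5 held 425 of the 470 CPM in no-agonist library 1. In agonist library 3, at 91.9 CPM, Krt5 held 20.9 and Wt1 60.5 CPM. Msln, Lrrn4 and Upk3b reached at most 13.4, 6.98 and 15.2 CPM, and Calb2 had 0 reads. Embryo and trophoblast markers summed to at most 10.4 CPM, with Pou5f1, Nanog and Cdx2 at 0 reads.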
